A study of Mus musculus with 4 samples.

Results

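Matricellular proteins are secreted glycoproteins of the extracellular matrix that act less as scaffold than as signals: they bind collagens, growth factors and integrins and change how cells attach, spread and migrate. Described here are 10 of their genes, out of 56748 in the deposited count table: Fn1, Fndc1, Thbs1, Thbs2, Tnc, Ccn4, Cthrc1, Sparc, Postn and Tgfbi. The genes were picked by symbol, with their counts in saline and ADC/cmLumiOpto samples already known, so the difference between groups is described for them without a test. All 10 had enough counts to pass the filter on low values, which kept 15320 genes.

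Fibronectin, the product of Fn1, is assembled by cells into fibrils on which other matrix proteins, collagens among them, are laid down. Thrombospondins, tenascin C, CCN proteins, SPARC and the fasciclin domain proteins periostin and TGFBI attach to such a matrix, and most are made in larger amounts in healing wounds, fibrosis and tumor stroma than in resting tissue. In the lung, tenascin C and periostin are known as components of the niche in which breast cancer cells start metastases.

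The 4 libraries came from lungs with 4T1 metastases of female BALB/cJ mice. 4T1-FLuc, a luciferase-expressing mouse line of triple-negative breast cancer (TNBC), had been given through the tail vein at 7 weeks of age (2000000 cells), so all tumors stem from a single line seeded in the lung by injection. The 2 saline samples are controls, which the labels also call PBS. The 2 ADC/cmLumiOpto samples come from mice given an anti-CD276 antibody linked to the microtubule inhibitor DM1 together with the mitochondria-depolarizing gene therapy cmLumiOpto, and tissue was taken after 3 weeks of treatment by the series description. The labels give 16 mg/kg of the antibody-drug conjugate and add the abbreviation Olap, whereas the methods give 8 mg/kg, and the labels give tumor cells as the source of RNA where the methods describe dissociated lung tissue. No library of either treatment alone was analyzed here. The methods state 4 biological samples per group, of which 2 per group were analyzed here as replicates. With 2 against 2, the smallest two-sided p that exact permutation allows is 0.333.

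Total counts were between 15263375 and 19675436 per sample, so the floor of 3 counts corresponds to between 0.152 and 0.197 CPM (counts scaled to library size, here by the TMM method). Summed over each list, markers of mammary tumor epithelium, led by Krt8, and of alveolar epithelium, led by Sftpc, were present in every sample. The tumor list shares a gene with the mesothelium list, so its counts do not by themselves show tumor cells. In bulk samples of several cell types, fewer cells of a type and less RNA per cell cannot be told apart. Across all 15320 genes, the edgeR quasi-likelihood test called 0 (0%) at an adjusted p under 0.05. At an unadjusted p under 0.05 it gave 12.2% of genes lower and 11.0% higher after treatment. The edgeR exact test called 7.64% of the genes and DESeq2 8.83%.

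The upstream sequences of the genes are given here because the genes differed in direction. RefSeq windows of 250 bases before a start site were at hand for 6 of the 10 genes (Fndc1, Postn, Tnc, Sparc, Thbs2 and Tgfbi), in 8 windows, on GRCm38.p6. Those of Fndc1, the gene with the largest difference, of Postn, whose samples within a group differed most after those of Cthrc1, and of Tgfbi, the 1 gene with higher CPM in both treated samples, are printed 5′ to 3′. Capitals mark the letters TATAAA and GGGCGG, found on either strand. The windows lie at chr17:7827303-7827552 (minus strand) for Fndc1, chr3:54360857-54361106 (plus strand) for Postn and chr13:56609336-56609585 (plus strand) for Tgfbi.
Fndc1: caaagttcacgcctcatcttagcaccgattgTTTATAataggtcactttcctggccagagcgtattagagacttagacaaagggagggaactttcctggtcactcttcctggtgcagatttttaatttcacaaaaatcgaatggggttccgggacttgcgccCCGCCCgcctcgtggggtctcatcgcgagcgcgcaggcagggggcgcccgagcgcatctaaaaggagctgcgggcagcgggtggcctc
Postn: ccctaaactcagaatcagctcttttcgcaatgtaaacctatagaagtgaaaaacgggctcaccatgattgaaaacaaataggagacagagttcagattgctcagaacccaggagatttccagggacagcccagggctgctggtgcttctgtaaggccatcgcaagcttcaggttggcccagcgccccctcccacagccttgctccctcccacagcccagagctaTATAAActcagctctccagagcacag
Tgfbi: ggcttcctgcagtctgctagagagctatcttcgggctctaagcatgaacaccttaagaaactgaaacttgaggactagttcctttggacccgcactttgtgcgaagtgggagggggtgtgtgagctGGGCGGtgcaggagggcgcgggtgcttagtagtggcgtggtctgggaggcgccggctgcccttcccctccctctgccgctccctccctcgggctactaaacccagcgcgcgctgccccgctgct
TATAAA, the letters of the TATA box, occurred in 5 of the 8 windows, from 4 genes (Fndc1, Postn, Tnc and Thbs2), and in 12.4% of the 32851 mouse windows. The 2 Tnc windows overlap and share 1 such match, and the other Postn window holds none. Neither that Postn window nor the Thbs2 window matched the start of an annotated transcript. In the printed Postn window TATAAA begins 26 bases before the start. The match in the Tnc windows begins 126 and 205 bases before their starts, and those of Fndc1 and Thbs2 lie on the other strand. GGGCGG, the GC box, occurred in 4 of the 8 windows, again with 1 match shared by the Tnc windows, and in 32.7% of all windows. CCAAT occurred in 1 window, that of Thbs2, and in 33.8% of all windows. Neither TGACTCA, the AP-1 element, nor CATTCC, the TEAD element, nor the CArG box was found in the 8 windows, where 4.46%, 12.6% and 1.47% of all windows hold them. These matches describe letters only, and the counts do not tell which start site was in use.

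After treatment, 7 of the 10 genes (Fn1, Fndc1, Thbs1, Thbs2, Tnc, Ccn4 and Cthrc1) had lower CPM in both ADC/cmLumiOpto samples than in either saline sample. Among all genes tested, 28.8% were lower without overlap in this way and 28.1% were higher. Tgfbi was the 1 gene with higher CPM in both treated samples, and Postn and Sparc overlapped between groups. The median log2 fold change of the 10 genes was −1.09, beside 0.028 for all genes tested. Because the genes were chosen with this contrast in view, neither the counts nor the median supports anything beyond the description.

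**Figure D1:**
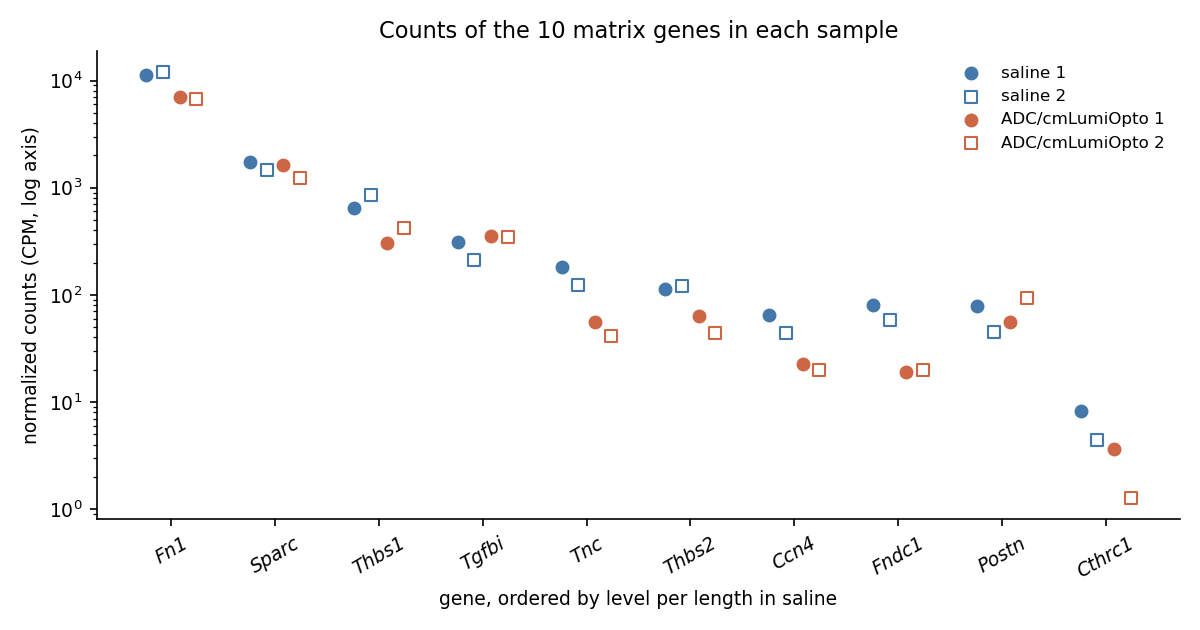
Normalized counts (CPM, log axis) of each of the 10 genes in the 4 samples, ordered by level per length in saline. Blue points are saline and orange points ADC/cmLumiOpto, with filled circles for sample 1 and open squares for sample 2. Fn1 stands at 6776 CPM or more in every sample, and the orange points of Fndc1 and Tnc lie well below the blue ones, while those of Postn and Sparc are interleaved.

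Fibronectin was by far the most abundant of these transcripts. Fn1 (ENSMUSG00000026193, chromosome 1, minus strand, 71624679 to 71692359 as listed with the counts) had 11321 and 12017 CPM in the saline samples and 7032 and 6776 CPM in the ADC/cmLumiOpto samples. The samples of a group lay close together, and the groups did not overlap. Its log2 fold change was −0.76 (SE 0.18), from 11669 ± 493 to 6904 ± 181 CPM (SD, n = 2 each). Among all genes listed, ordered by level per length, Fn1 ranked 26 in saline and 75 after treatment. The positions of this and the following genes are those of the count table. The processing notes of the submitters name mm39, while the methods name GRCm38, from whose annotation (GENCODE vM21) the start and end differed for all but 1472 of 52073 shared identifiers.

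Fndc1 (ENSMUSG00000071984, chromosome 17, minus strand, 7957401 to 8046134), which encodes a secreted protein with fibronectin type III domains, showed the largest difference of the 10 genes. It had 80.5 and 58.6 CPM in saline and 19.0 and 19.7 CPM after treatment. The 2 treated samples were nearly equal, and both lay far below the lower saline value. The log2 fold change was −1.84 (SE 0.21), which placed the gene at percentile 0.503 of all genes tested.

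Thrombospondins bind CD36 and CD47 on cells and restrain blood vessel growth, and thrombospondin 1 also releases TGF-β from its latent complex. Thbs1 (ENSMUSG00000040152, chromosome 2, plus strand, 117942357 to 117957614) had 640 and 860 CPM in saline and 302 and 418 CPM after treatment. Thbs2 (ENSMUSG00000023885, chromosome 17, minus strand, 14885762 to 14914497) had 114 and 120 CPM in saline and 64.1 and 44.0 CPM after treatment. Neither gene overlapped between groups, and their log2 fold changes were close, −1.06 (SE 0.23) for Thbs1 and −1.11 (SE 0.22) for Thbs2. Thbs1 is also stored as protein in platelets. The 10 platelet and megakaryocyte markers, led by Pf4, summed to 15.6 and 29.3 CPM in saline and 24.7 and 37.2 CPM after treatment, with Gp1bb at 0 in all samples. These sums overlapped between groups. Of the 6 such markers that passed the filter 3 were higher and 0 lower without overlap, beside 28.1% and 28.8% of all genes. The 3 include Ppbp, at 6 to 63 counts per sample, and Gp9, at 0 to 26.

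Tenascin C is a large multimeric glycoprotein that loosens cell adhesion to fibronectin. Tnc (ENSMUSG00000028364, chromosome 4, minus strand, 63878022 to 63965252) had 183 and 124 CPM in the saline samples and 56.1 and 41.3 CPM in the treated samples. The groups were separated despite the spread within saline, with a log2 fold change of −1.66 (SE 0.26).

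Ccn4, also known as Wisp1, encodes a CCN protein that WNT signaling induces, and Cthrc1 a secreted protein with a short collagen-like stretch that marks activated fibroblasts in injured lung. Ccn4 (ENSMUSG00000005124, chromosome 15, plus strand, 66763169 to 66795050) had 64.3 and 43.9 CPM in saline and 22.7 and 19.9 CPM after treatment, a log2 fold change of −1.34 (SE 0.23). Cthrc1 (ENSMUSG00000054196, chromosome 15, plus strand, 38940327 to 38950516) was the least abundant gene, with raw counts of 132 and 65 in saline and 64 and 26 after treatment. On the CPM scale these are 8.25 and 4.38 against 3.63 and 1.27, so the saline and treated samples nearest to each other barely separate. The log2 fold change of Cthrc1 was −1.38 with an SE of 0.59. It ranged from −2.31 to −0.80 as each sample was left out, the former without ADC/cmLumiOpto sample 1 and the latter without sample 2.

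The 3 remaining genes were not lower without overlap in CPM. Sparc (ENSMUSG00000018593, chromosome 11, minus strand, 55285326 to 55314009), whose product binds collagen and helps fibrils to form, had 1747 and 1452 CPM in saline and 1621 and 1244 CPM after treatment. The groups overlapped, with a log2 fold change of −0.16 (SE 0.20). Without ADC/cmLumiOpto sample 2 the log2 fold change of Sparc was 0.015.

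Postn and Tgfbi encode the fasciclin domain proteins periostin and TGFBI, which link collagen to integrins and are both induced by TGF-β. Postn (ENSMUSG00000027750, chromosome 3, plus strand, 54268530 to 54298458) had 78.0 and 44.7 CPM in saline and 56.1 and 94.3 CPM after treatment. The highest and the lowest value thus came from opposite groups with the other two between them. Its log2 fold change of 0.29 (SE 0.34) turned to −0.05 without saline sample 2 and to −0.13 without ADC/cmLumiOpto sample 2. Tgfbi (ENSMUSG00000035493, chromosome 13, plus strand, 56757336 to 56787375) had 311 and 211 CPM in saline and 355 and 350 CPM after treatment. Both treated samples lay above saline in CPM, with a log2 fold change of 0.43 (SE 0.22), but the groups overlapped in TPM (counts divided by gene length and scaled to a common total), at 252 and 172 in saline against 237 and 261. Without saline sample 1 the log2 fold change of Tgfbi was 0.73, and without saline sample 2 it was 0.18.

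**Figure D2:**
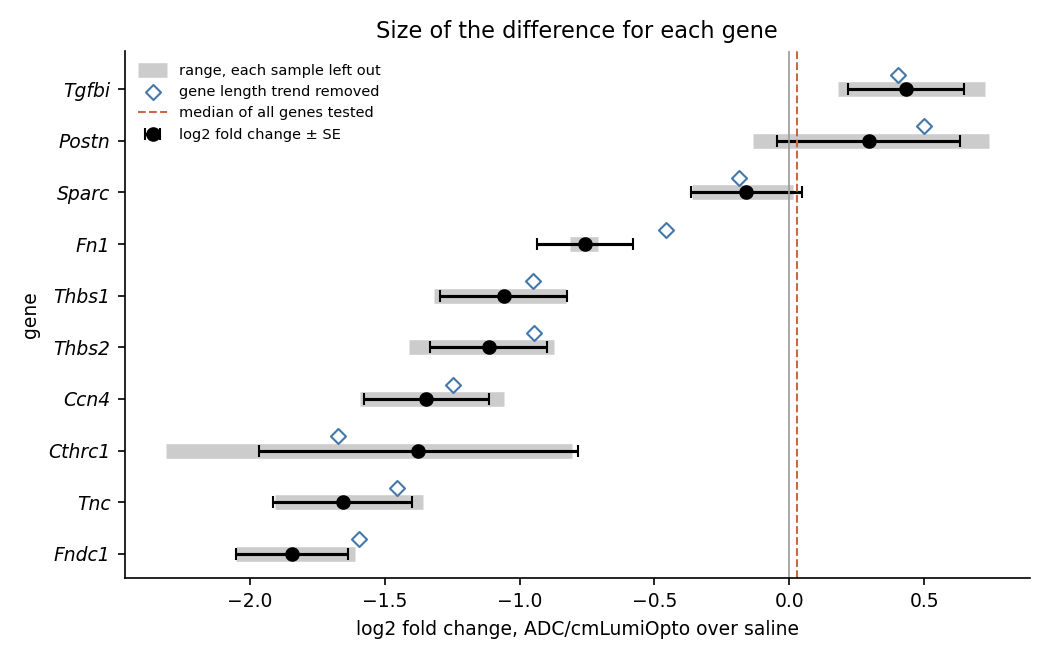
Log2 fold change (ADC/cmLumiOpto over saline) of each of the 10 genes, shown as black points with the SE as bars. Gray bands give the range when each sample is left out, open diamonds the value with the gene length trend removed, and the dashed line the median of all genes tested (0.028). The bands of Postn and Sparc cross 0, and those of the 7 lower genes stay below it.

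The levels of the 10 genes were set against each other in TPM, which allows for length. In saline the order was Fn1 (3060 TPM), Sparc (1294), Thbs1 (378), Tgfbi (212), Tnc (60.4), Thbs2 (51.2), Ccn4 (29.8), Fndc1 (21.6), Postn (21.6) and Cthrc1 (12.1), as means of 2 samples. Sample values of neighbors overlapped for Tnc and Thbs2, and along the chain from Ccn4 to Fndc1, Postn and Cthrc1. The 4 highest genes and the step from Thbs2 to Ccn4 were separated in both saline samples.

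After treatment the order differed. Tgfbi, at 237 and 261 TPM, stood above Thbs1, at 125 and 194 TPM, where in saline Thbs1 had stood above Tgfbi in both samples. Postn moved from place 9 to place 5, and Tnc from place 5 to place 7. Neighbors that overlapped were Postn and Thbs2, Thbs2 and Tnc, and Fndc1 and Cthrc1. The TPM of all 10 genes summed to 5167 and 5115 in saline and to 3039 and 3095 after treatment. Fn1 made up 57.3% and 61.8% of this sum in saline and 50.0% and 52.8% after treatment, and Fn1 with Sparc between 82.7% and 85.5% in all samples. On the TPM scale 8 of the 10 genes were lower without overlap, Sparc included, and Postn and Tgfbi overlapped. On that scale 41.1% of all genes tested were lower without overlap and 17.9% higher.

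**Figure D3:**
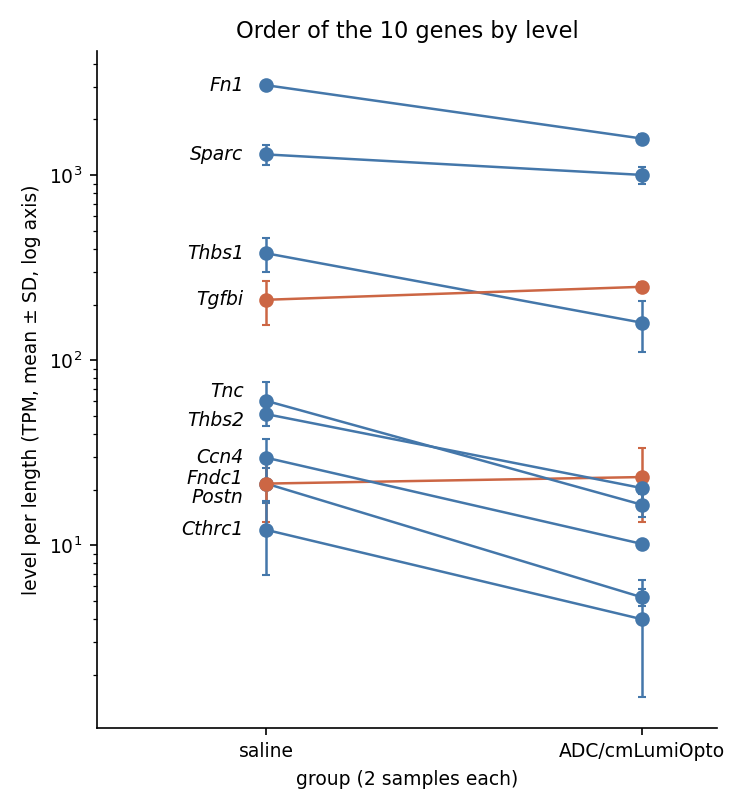
Level per length of the 10 genes in both groups (TPM, log axis), as mean ± SD over 2 samples each. Lines joining the groups are blue where the treated mean is lower and orange where it is higher. The lines of Thbs1 and Tgfbi cross, and Postn ends above Tnc, Thbs2, Ccn4 and Fndc1.

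The spread between the 2 samples of a group is also a description, since the genes were picked with their counts known. The median absolute log2 ratio between samples was 0.50 for the 10 genes in saline, beside 0.25 for all genes tested, and 0.41 beside 0.29 after treatment. Fn1 varied little in either group, with ratios of 0.086 and 0.053 on the log2 scale. Cthrc1 was the least steady, at 0.90 in saline and 1.44 after treatment, the latter at percentile 96.3 of all genes. Postn followed with 0.80 and 0.75. Tgfbi and Fndc1 varied in saline (0.56 and 0.46) but hardly after treatment (0.022 and 0.049).

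Over all genes tested, the log2 fold change tended to be lower the longer the gene. With genes split by length into 10 equal bins, the median log2 fold change went from 0.40 in the shortest bin to −0.31 in the longest. By length, Fn1 lies at percentile 94.4, Fndc1 at 90.9 and Postn at 87.0, while Cthrc1 lies at 13.6. With this trend removed, the log2 fold change of Fn1 was −0.46 in place of −0.76, that of Postn 0.50 in place of 0.29, and that of Cthrc1 −1.67 in place of −1.38. Fndc1 was at −1.59 and Tnc at −1.46, and the median of the 10 genes was −0.95. All 7 lower genes remained below 0.

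Stromal cells are the main known source of most of these proteins. The 15 fibroblast markers, led by Col1a1, summed to 5681 and 4222 CPM in saline and 2361 and 2227 CPM after treatment. The fall in this sum lay mostly in fibrillar collagens. Group means went from 1710 to 421 CPM for Col1a1, from 1006 to 382 for Col1a2 and from 1202 to 547 for Col3a1. Of the 15 markers, 6 were lower and 4 higher without overlap, and 5 overlapped. Among all genes tested, 28.8% were lower and 28.1% higher in this way. At an unadjusted p under 0.05, 7 of the 15 were lower and 4 higher, beside 12.2% and 11.0% of all genes. The quasi-likelihood test called none after adjustment over all genes. The exact test called 7 and DESeq2 6, beside 7.64% and 8.83% of all genes. By log2 fold change, the 6 lower without overlap were Col1a1 (−2.02), Col1a2 (−1.40), Col3a1 (−1.13), Pdgfra (−0.81), Pdgfrb (−0.58) and Dcn (−0.50). The 4 higher without overlap were Inmt (2.58), Tcf21 (2.21), Pi16 (2.12) and Dpt (1.61). Smooth muscle and pericyte markers, led by Acta2, summed to between 216 and 246 CPM in saline and between 166 and 187 CPM after treatment. Acta2 made up 51.0% of this sum, and without it the sums overlapped, at 90.6 and 97.9 CPM in saline and 97.0 and 114 CPM after treatment. Of the 10 markers in that list 3 were lower and 4 higher without overlap, beside 28.8% and 28.1% of all genes. The lower were Acta2 (−0.95 on the log2 scale), Cnn1 (−0.82) and Cspg4 (−0.30). The higher were Myh11 (0.21), Rgs5 (1.16), Higd1b (1.71) and Cox4i2 (1.60), and Tagln, Des and Notch3 overlapped. The part of these markers in the values of the 10 genes was not tested.

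Markers of mammary tumor epithelium summed to 3678 and 3867 CPM in saline and 3691 and 3815 CPM after treatment, a ratio of 0.995. Of the 10 such markers that passed the filter, 3 were lower and 4 higher without overlap, and 3 overlapped. The shares over all genes tested were 28.8% lower and 28.1% higher. The steady sum is no measure of tumor cell content, which was not tested. Alveolar markers summed to 1926 and 611 CPM in saline and 6279 and 5445 CPM after treatment. Macrophages, a known source of Tgfbi and Fn1, had markers led by Lyz2 that summed to 3707 and 3237 CPM in saline and 6612 and 4391 CPM after treatment. Lyz2 made up 53.3% of this sum, and without it the sums overlapped, at 2020 and 2108 CPM in saline and 2313 and 1944 CPM after treatment. Of the 11 macrophage markers 7 overlapped between groups, 3 were higher and 1 was lower without overlap, beside 28.1% and 28.8% of all genes. Endothelial markers, led by Pecam1, went from 639 and 468 CPM to 720 and 1101 CPM, and T cell markers, led by Cd8a, from 59.8 and 23.1 CPM to 122 and 55.4 CPM, with overlap between groups for T cells. Mesothelial markers, led by Msln, overlapped between groups (240 to 353 CPM in saline and 243 to 304 CPM after treatment). Markers of liver and plasma protein, such as Ahsg, summed to at most 1.56 CPM.

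**Figure D4:**
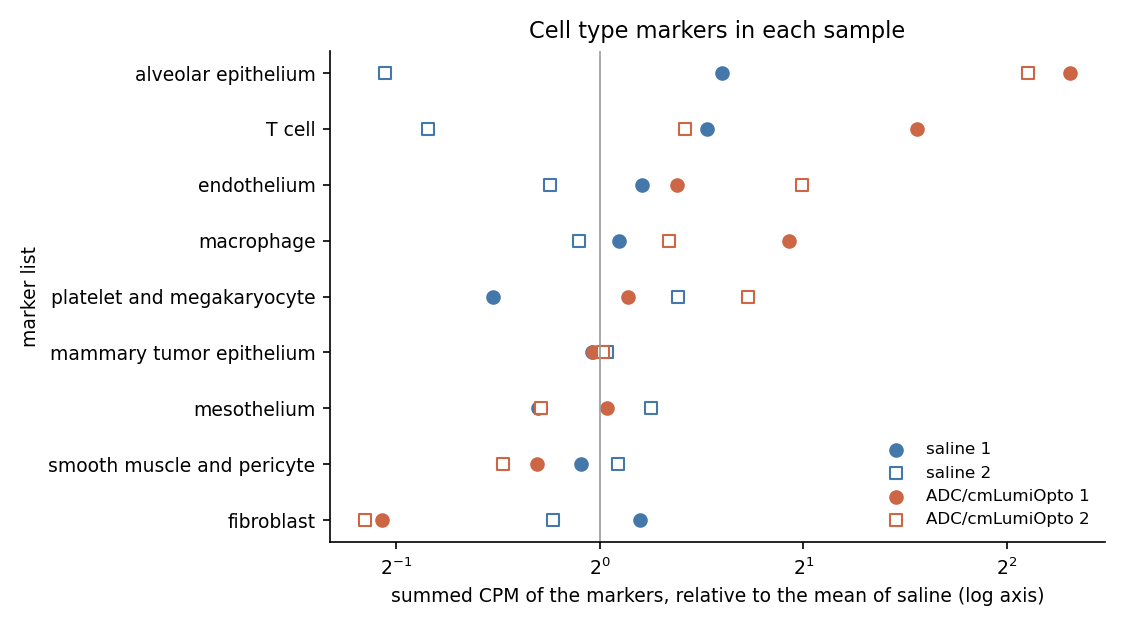
Summed CPM of each cell type marker list in each sample, relative to the mean of the 2 saline samples (log axis). Blue is saline and orange ADC/cmLumiOpto, with filled circles for sample 1 and open squares for sample 2. The fibroblast sum lies lowest after treatment, mostly through fibrillar collagens, and the alveolar sum highest. The tumor epithelium sum stays near 1 in all 4 samples. Of its markers, 3 were lower and 4 higher without overlap, beside 28.8% and 28.1% of all genes.

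The relatives, receptors, enzymes and inducers of these proteins were taken from lists that hold 121 further genes, of which 101 passed the filter. The edgeR quasi-likelihood test called 0 of them after adjustment over all genes (smallest adjusted p = 0.116), while 35 were lower and 11 higher at an unadjusted p under 0.05. Among all genes tested, the shares at that threshold were 12.2% and 11.0%. The exact test called 15 of the 101 and DESeq2 25, beside 7.64% and 8.83% of all genes. Of the 101, 53 were lower and 14 higher without overlap, beside 28.8% and 28.1% of all genes. Their median log2 fold change was −0.37, beside 0.028. The gene length trend was not removed from the medians of these lists. The lists were made with earlier results of these data known, so these counts are a description only.

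Within the families, close relatives of the 10 genes often had other values. Thbs3 had a log2 fold change of −0.39 (SE 0.32) with overlapping groups, and Thbs4 and Comp were too low to test. Of the tenascins, Tnr (−1.68, SE 0.51) and Tnn (−1.09, SE 0.45) were lower without overlap, though at no more than 129 counts in any sample, and Tnxb (0.40, SE 0.48) overlapped. All 4 further CCN genes that passed the filter overlapped between groups, from Ccn2 at −0.53 and Ccn5 at −0.38 to Ccn1 at −0.29 and Ccn3 at 0.03. In the SPARC family, Smoc1 (−1.38, SE 0.55) and Fstl1 (−0.87, SE 0.29) were lower and Spock2 (1.02, SE 0.42) higher without overlap, and Sparcl1 (−0.08) overlapped like Sparc itself. The fasciclin domain receptor Stab1 was lower (−0.59, SE 0.17), unlike Postn and Tgfbi. Among other genes with fibronectin type III domains, Fndc10, Fndc3b and Fndc3a had values between −0.69 and −0.57, and Fndc4 −0.11.

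Other glycoproteins of matricellular type showed no common direction, with a median of −0.0045 over 21 genes. Ecm1, a secreted glycoprotein of the matrix, was at −0.83 (SE 0.31). Angptl4, a secreted lipase inhibitor, was at 1.47 (SE 0.28) and was not among the extremes of its list, which were Vtn and Edil3. Those had few counts: Vtn 9 and 0 in saline and 23 and 46 after treatment, and Edil3 17 and 4 against 35 and 57.

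Of 20 receptor genes tested, 8 were lower and 3 higher at an unadjusted p under 0.05, beside 12.2% and 11.0% of all genes. Lrp1, the endocytic receptor that clears thrombospondins, had 803 and 1033 CPM in saline and 359 and 495 CPM after treatment (log2 fold change −1.10, SE 0.23). Itgb8, an integrin subunit that activates TGF-β, was at −1.03 (SE 0.38), whereas Itgb6, which does so in epithelium, was at 1.32 (SE 0.52). Cd36, which binds thrombospondin 1 and is also abundant in lung endothelium and macrophages, was higher at 2.08 (SE 0.60).

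Of 19 enzymes that cut, cross-link or assemble these proteins, 8 were lower and 2 higher at an unadjusted p under 0.05. Among all genes tested, 12.2% were lower and 11.0% higher at this threshold. Mmp2, a gelatinase made by stromal cells, had 180 and 117 CPM in saline and 38.7 and 42.8 CPM after treatment, a log2 fold change of −1.86 (SE 0.24). Plat, the tissue plasminogen activator, was at −1.16 (SE 0.31). In the other direction lay Ctsk, a collagen-degrading cathepsin (1.18, SE 0.31), and Pcolce2, an enhancer of procollagen processing (0.85, SE 0.17).

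The inducers, which hold TGF-β ligands and receptors, SMAD, YAP and TEAD genes and other regulators, were mostly lower. Of 23 genes tested, 18 were lower and 0 higher without overlap, beside 28.8% and 28.1% of all genes. The exact test called 6 and DESeq2 9, beside 7.64% and 8.83% of all genes. The median of the 23 was −0.55, beside 0.028 for all genes, both without removal of the gene length trend. This list too was made with earlier results of these data known, so its counts are a description only. Smad3, which carries the TGF-β signal to the nucleus, had 300 and 361 CPM in saline and 131 and 152 CPM after treatment, a log2 fold change of −1.23 (SE 0.18). Prrx2 was at −1.52 (SE 0.65) on 21 to 104 counts. The highest values of the list were 0.04 for Osm and −0.05 for Tgfb3, both with overlapping groups. Transcript levels of a regulator do not measure its activity.

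**Figure D5:**
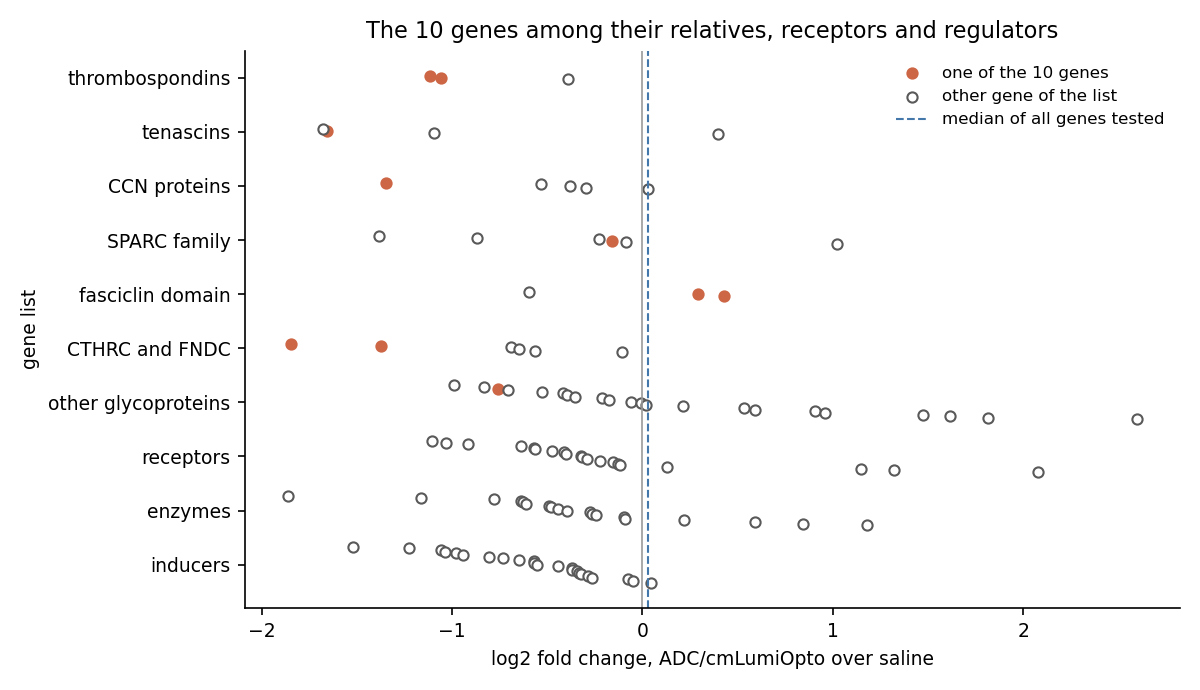
Log2 fold change (ADC/cmLumiOpto over saline) of every gene that passed the filter in 10 lists, with the 10 genes filled and the others open. The dashed line is the median of all genes tested (0.028). Receptors and enzymes spread to both sides of 0, while inducers lie at or below 0.04 in every case.

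By the shape of their profile over the 4 samples, the genes nearest to the mean of the 10 included Inava, Myrf, 9330175E14Rik and Atp7a, at root mean square differences of 0.039, 0.044, 0.054 and 0.054 in log2 CPM. Over 4 samples in 2 groups, such likeness rests mainly on the difference between groups.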

How the data were processed

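Messenger RNA of 2 saline and 2 ADC/cmLumiOpto samples was measured by bulk RNA sequencing. The values deposited by the authors are counts, whole numbers of reads per gene that were not normalized. The methods name HISAT2 as the aligner, the processing notes of the submitters also list HISAT and TopHat2, and the counting program is not given in the sources used here. The labels do not say whether the libraries keep the strand, so reads of Fn1, Tnc and Thbs1 could include those of opposite-strand genes, which held at most 5 counts.

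Groups were taken from the sample titles. The analysis used edgeR 4.0.16 in R 4.3.3 (filterByExpr, TMM, glmQLFit and glmQLFTest, Benjamini-Hochberg adjustment over 15320 genes, threshold 0.05, prior count 0.125). The SE is the size of the log2 fold change divided by the square root of F. TPM used the gene length in the table. Alternatives were the exact test, DESeq2 1.42.0, other scalings and filters, a replicate block, removal of the gene length trend by lowess (span 0.3), a prior count of 2 and each sample left out. The scripts were run first on simulated counts with known changes.

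The 10 genes and all lists were chosen with earlier results of these data known. Beside the 10, the genes named are the 2 lowest and 2 highest of each list, the most abundant marker of each cell type, and the 5 nearest profiles. Of the genes so named, 2 are not reported here. Angptl4, Ppbp, Gp9, the fibroblast markers beside Col1a1 and the smooth muscle and pericyte markers beside Acta2 fall outside this rule. They were chosen after their values were seen. Sequences of 4 promoters and of the proteins were not used here.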

Additional observations from a re-analysis of the deposited data

How the results depend on the processing

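The number of genes past an adjusted p under 0.05, 0 by the quasi-likelihood test, was 1170 by the exact test, 1353 by DESeq2 and 2259 without a filter. It was 607 with a replicate block (299 lower and 308 higher) and 2 with the block and the gene length trend removed, and it ranged from 0 to 218 as each sample was left out (218 without saline sample 1). The sample numbers are not said to mark shared animals, and deviations of same-numbered samples correlated at r = 0.0985 over 15320 genes with only 2 pairs, so the block is given here alone. For the 101 further genes of the lists the count, also 0, was 15, 25, 36 and 14 by the exact test, by DESeq2, without a filter and with the replicate block, and from 0 to 4 as each sample was left out. Library size without TMM, upper-quartile scaling, at least 10 counts in every sample and removal of the length trend left both counts at 0.

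The median log2 fold change of the 10 genes was −0.95 with the length trend removed and ranged from −1.12 to −0.84 as each sample was left out. Of the values of single genes under the alternatives, 130 stayed within the spread between samples and 10 moved further, and Postn and Sparc changed sign when samples were left out. Each group has 2 samples, which limits precision, and the lowest count of any of the 10 genes was 26, in Cthrc1.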
